A study of Caenorhabditis elegans with 12 samples.

Results

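Caenacins are small secreted antimicrobial peptides of nematodes, and 9 of their genes, cnc-1 to cnc-7, cnc-10 and cnc-11, were followed by name in a table of 46891 named genes. The table came from whole N2 worms, the wild-type strain of Caenorhabditis elegans, after RNA interference (RNAi, the lowering of a transcript by double-stranded RNA) of y54g2a.18, the worm homologue of BCAP31, or after a control RNAi, with 3 libraries of polyadenylated RNA in each group. BCAP31 is a membrane protein of the endoplasmic reticulum, and the study asked how its homologue bears on the ageing of the worm. The sources used here do not give the age or stage of the worms or what the control RNAi targets. They also do not say whether the replicates are separate cultures, and the p-values below reflect the spread between libraries, which may be technical alone. A second experiment of the series, on rpoa-49, deposited a table with 0 rows for these genes and 418 counts in all, and it was not analysed here.

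The epidermis of the worm, the layer beneath the cuticle, makes peptides against fungi that pierce the body wall and after wounds. These belong mainly to the caenacins and to the related nlp peptides, several of which lie in clusters of similar neighbouring genes. The best known caenacin, cnc-2, is switched on in the epidermis by fungal infection through the DBL-1 signal, a TGF-beta ligand made by neurons that acts on the receptor SMA-6 and the Smad protein SMA-3, whereas nlp-29 is the standard reporter of the p38 kinase pathway of the same tissue. The other members are known as peptides of the same family, and no separate role is given for them here.

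The libraries held 30103422 to 39492584 counts. The targeted gene Y54G2A.18 stood at 391, 358 and 409 CPM (counts scaled to library size, with trimmed-mean factors) in the controls and at 190, 128 and 90.2 CPM after the knockdown (log2 fold change -1.51, standard error 0.25, edgeR adjusted p = 0.0073). It overlaps dib-1 in the annotation, so part of its reads could belong to that gene. Ribosomal RNA made up 0.219 to 1.69% of the control counts and 0.0965 to 2.06% of the knockdown counts. In RNA from whole worms, a change in the number of epidermal cells and a change in RNA per cell cannot be told apart.

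All 9 genes had a row, and 7 had counts enough to be tested. After y54g2a.18 RNAi, cnc-1, cnc-4, cnc-6 and cnc-10 rose, by 27.1-, 2.27-, 2.30- and 1.91-fold in mean CPM. The tested genes cnc-7, cnc-11 and cnc-3 did not pass an adjusted p of 0.05, and cnc-2 and cnc-5 could not be tested. Thus 4 of the 9 genes were called higher and 0 lower, in a comparison in which 3.97% of 14290 tested genes were called higher and 5.01% lower, 8.98% in all. The 3 knockdown libraries lay above the 3 control libraries in 6 of the 7 tested members and below them in 0, against 15.8% of all tested genes that lay above and 14.6% that lay below. Before adjustment 6 of the 7 had a p under 0.05, all higher, against 23.3% of all tested genes in either direction. DESeq2 called 5 members higher and 0 lower, and among all genes it called 826 higher and 946 lower. With limma-voom 4 members were called higher and 0 lower, and among all genes 486 were called higher and 733 lower. The number of genes called in the whole table, 1283, ran from 646 without control replicate 1 (664 and 667 without control replicates 2 and 3) to 2097 without knockdown replicate 1. On the log2 scale the 7 members had a median fold change of 0.93, and all tested genes 0.02.

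**Figure D1:**
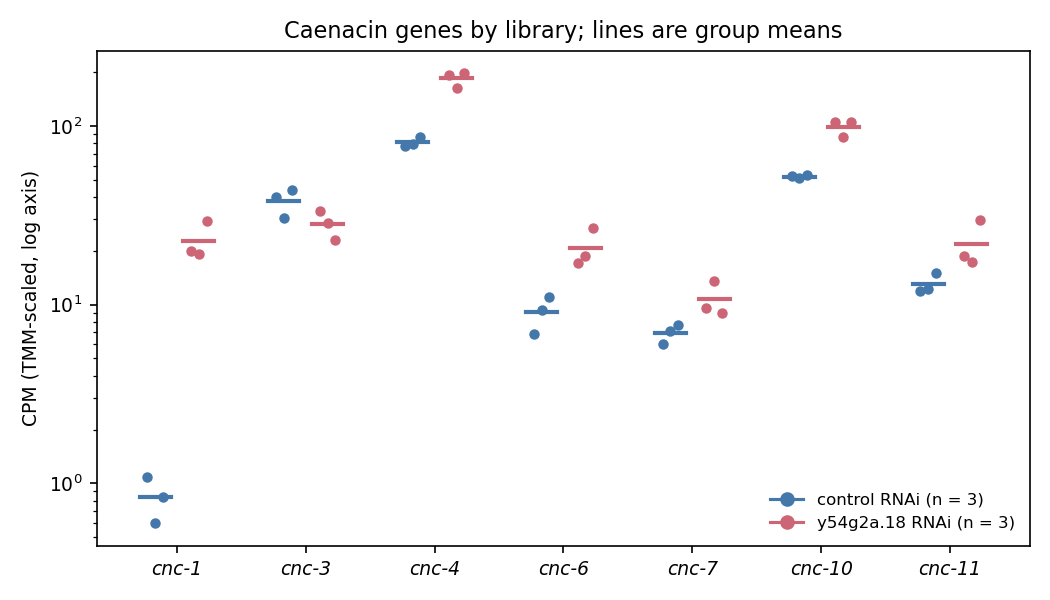
CPM on a log axis of the 7 tested caenacin genes in each of the 3 control RNAi libraries (blue) and the 3 y54g2a.18 RNAi libraries (red), with lines at the group means. cnc-1 moves from 0.598 to 1.09 CPM up to 19.3 to 29.3 CPM, and cnc-3 is the gene whose groups overlap.

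cnc-1 was almost silent in control worms, with 42, 24 and 28 counts, or 1.09, 0.598 and 0.84 CPM. In the knockdown it had 730, 726 and 941 counts, or 19.9, 19.3 and 29.3 CPM. Each knockdown library was far above each control library, and the group means were 0.843 ± 0.25 and 22.8 ± 5.59 CPM (SD, n = 3). The log2 fold change was 4.76 ± 0.30 (standard error; adjusted p = 0.00044, quasi-likelihood test of edgeR), and it ran from 4.54 to 4.99 over 15 alternative analyses, all of which called it. The control level rested on 94 counts in all.

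cnc-4 was the most abundant of the 9 genes in both groups. It stood at 77.6, 79.8 and 87.1 CPM under control RNAi and at 194, 163 and 198 CPM after the knockdown, so the lowest knockdown library lay well above the highest control. Its log2 fold change was 1.18 ± 0.13 (standard error, as in the values below; edgeR adjusted p = 0.0014), and all 15 alternatives called it, with values from 1.13 to 1.26.

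cnc-10, next in abundance, was the member with the tightest controls. Its control libraries held 52.4, 50.9 and 53.0 CPM and its knockdown libraries 106, 86.7 and 106 CPM. The groups did not overlap, and the log2 fold change was 0.93 ± 0.13 (edgeR adjusted p = 0.0038, and at most 0.0381 over the alternatives).

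cnc-6, the member on chromosome III, was at 6.82, 9.35 and 11.04 CPM under control RNAi and 17.02, 18.7 and 26.8 CPM after the knockdown. The groups did not overlap, though both were spread more widely than those of cnc-4. Its log2 fold change was 1.20 ± 0.25 (edgeR adjusted p = 0.0207). The call was lost without control replicate 1 (adjusted p = 0.109) or control replicate 2 (adjusted p = 0.0859).

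cnc-11 and cnc-7 had higher values in every knockdown library but did not pass the test. cnc-11 held 11.9, 12.3 and 15.004 CPM under control RNAi and 18.8, 17.3 and 29.9 CPM after the knockdown, where the third library was the highest. Its log2 fold change was 0.75 ± 0.24 (edgeR adjusted p = 0.10, DESeq2 adjusted p = 0.047). cnc-7 held 6.02, 7.10 and 7.71 CPM under control RNAi and 9.59, 13.5 and 9.03 CPM after the knockdown, with the second library the highest. Its log2 fold change was 0.63 ± 0.22 (edgeR adjusted p = 0.12), and 0 of the 15 alternatives called it.

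cnc-3 was the tested member with lower values in the knockdown. It held 40.3, 30.7 and 43.6 CPM under control RNAi and 33.4, 28.7 and 23.1 CPM after the knockdown, so the groups overlapped. The log2 fold change of -0.43 ± 0.20 did not pass the test (edgeR adjusted p = 0.25), and over the alternatives it ran from -0.56 to -0.30 with 0 calls.

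**Figure D2:**
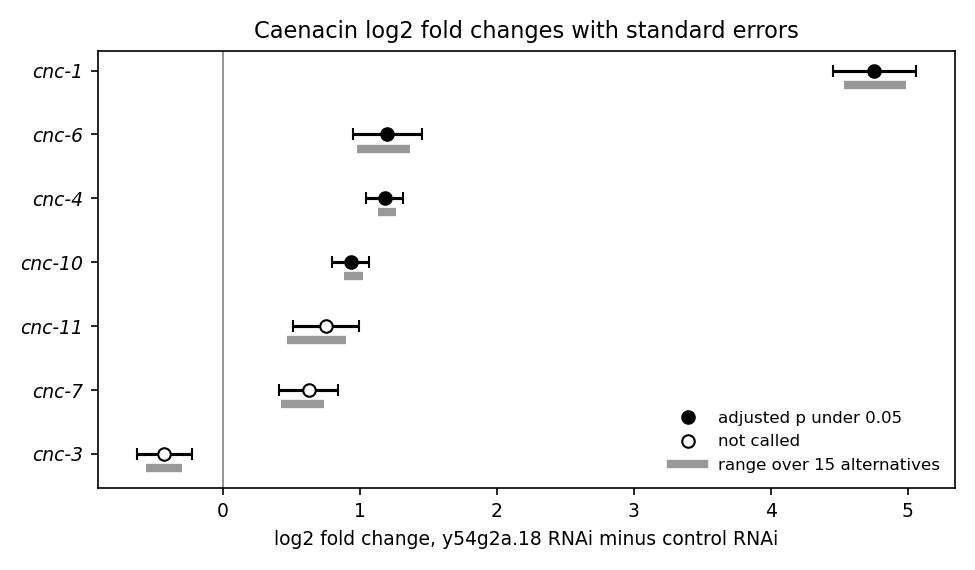
Log2 fold change of y54g2a.18 RNAi minus control RNAi for the 7 tested caenacin genes; points are edgeR estimates with bars of 1 standard error, filled where the adjusted p is under 0.05, and grey bars span 15 alternative analyses. cnc-1 lies at 4.76, the other called genes between 0.93 and 1.20, and cnc-3 alone lies below 0.

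cnc-5 and cnc-2 had too few counts to be tested. cnc-5 had 0 counts in the 3 controls and in knockdown replicates 1 and 2, and 4 counts in knockdown replicate 3. At this depth 3 counts over a group stand for 0.0266 CPM under control RNAi and 0.0284 CPM after the knockdown, which covers counting error only. The knockdown mean of cnc-5, 0.0415 CPM, lay above that value but came from replicate 3 alone. cnc-2, the family's best known infection gene, was listed at 0 in all 6 libraries.

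The 0 of cnc-2 cannot be read as absence of its transcript. cnc-2 is the only one of the 9 genes with more than 1 RefSeq transcript. Of 4669 protein-coding genes in the table with more than 1 RefSeq transcript, 47.3% were listed at 0 in all 6 libraries, against 6.91% of 14871 genes with 1 transcript. Genes listed at 0 include lin-26 and vab-10, which the worm's epidermis needs. The sources used here do not say how reads that fit several transcripts were counted, and the part of this step in the 0 of cnc-2 was not tested. The other 8 members have 1 RefSeq transcript each.

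Of the 9 genes, 6 are neighbours on chromosome V. In the WBcel235 annotation the cluster runs cnc-11, cnc-1, cnc-5, cnc-4, cnc-3 and cnc-2, between R09B5.11 and the receptor-like gene srj-23, and none of the members overlaps another gene. Coordinates are left out because the build behind the counts is unknown. Within the cluster, called genes stood beside genes that were not called: cnc-1 lay between cnc-11 and the nearly uncounted cnc-5, and cnc-4 lay between cnc-5 and cnc-3. The flanking R09B5.11 was at 8.93 ± 0.59 CPM under control RNAi and 9.93 ± 1.92 CPM after the knockdown (edgeR adjusted p = 0.70), and srj-23 was listed at 0. The 3 members outside the cluster, cnc-6, cnc-7 and cnc-10, also included both called and uncalled genes.

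**Figure D3:**
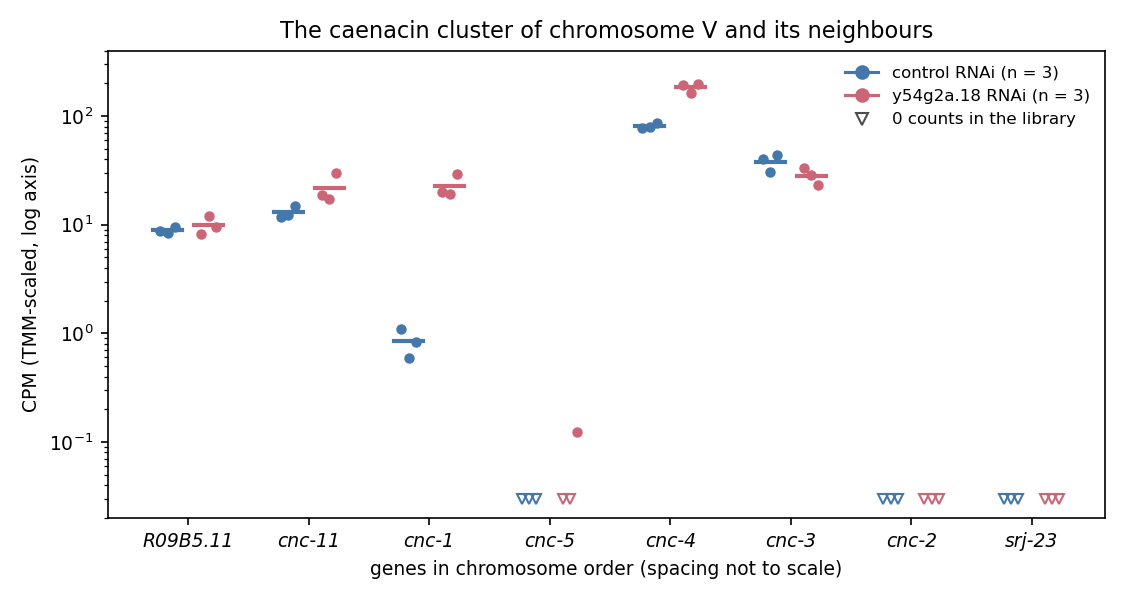
CPM on a log axis of the 6 clustered caenacin genes of chromosome V and the gene on each side, in chromosome order, with spacing not to scale; triangles mark libraries with 0 counts. The knockdown libraries of cnc-1, cnc-4 and cnc-11 lie above their controls, though cnc-11 was not called by edgeR. The groups of cnc-3 overlap, and R09B5.11 lies between 8.30 and 12.05 CPM in all 6 libraries.

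Ratios within a library do not depend on how libraries are scaled, and they set members beside one another directly. The ratio of cnc-3 to cnc-4 counts was 0.519, 0.385 and 0.501 in the controls and 0.173, 0.176 and 0.117 in the knockdown. The ratio of cnc-11 to cnc-1 was 10.9, 20.6 and 17.9 in the controls and 0.942, 0.895 and 1.02 in the knockdown, so cnc-11 had at least 10.9 times the counts of cnc-1 in each control and close to the same number in each knockdown library. The ratio of cnc-1 to cnc-4 was 0.014, 0.00749 and 0.00965 in the controls and 0.103, 0.119 and 0.148 in the knockdown. In each of these 3 pairs, chosen after the values were seen, the groups did not overlap. The difference in mean log2 ratio was -1.61, -4.06 and 3.60 in that order. The exact two-sided permutation p was 0.10 for each, the smallest that 3 against 3 libraries allow, and also 0.10 after adjustment over the 3 pairs. Groups that do not overlap always give this p, and the adjustment does not cover the choice of the pairs. The p therefore adds nothing to the ratios themselves. The ratio of cnc-10 to cnc-4 was 0.640 ± 0.033 under control RNAi and 0.538 ± 0.0071 in the knockdown (SD, n = 3). These groups did not overlap either, at 0.675, 0.637 and 0.608 against 0.546, 0.532 and 0.535.

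Among the 7 tested members the order of levels shifted mainly through cnc-1. Per kilobase of annotated exon, the control levels ran from cnc-4 at 187 ± 11.3 CPM through cnc-10 at 140 ± 2.90 and cnc-3 at 86.2 ± 15.1 to cnc-7 at 24.98 ± 3.08, cnc-11 at 24.9 ± 3.22, cnc-6 at 19.6 ± 4.60 and cnc-1 at 4.46 ± 1.30 CPM per kilobase (SD, n = 3). The library ranges of cnc-7 and cnc-11 overlapped, as did those of cnc-11 and cnc-6, and the other neighbours in this order were apart. In the knockdown cnc-4 at 425 ± 43.7 and cnc-10 at 268 ± 29.7 CPM per kilobase again came first, and cnc-1 followed at 121 ± 29.6, above cnc-3 at 64.1 ± 11.6. Below them cnc-6, cnc-11 and cnc-7, at 45.1 ± 11.4, 41.9 ± 13.1 and 38.6 ± 8.84 CPM per kilobase, overlapped one another in turn, and the range of cnc-3 overlapped that of cnc-6. The place of cnc-1 above cnc-3 rests on annotated exon lengths of 189 and 443 bases. Not divided by length, the knockdown mean of cnc-1 was below that of cnc-3, at 22.8 ± 5.59 and 28.4 ± 5.16 CPM. Scaling by length is uncertain for a gene this short. The order leaves out cnc-8, a caenacin outside the named set. It stood at 367 ± 33.2 CPM per kilobase under control RNAi, above cnc-4. In the knockdown it stood at 387 ± 64.7 CPM per kilobase, with a mean below that of cnc-4 (SD, n = 3).

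Summed over the 9 named genes, the level was 196, 191 and 218 CPM under control RNAi and 398, 347 and 422 CPM after the knockdown. The groups did not overlap, and the means were 202 ± 14.6 and 389 ± 38.2 CPM, a ratio of 1.93 that stayed between 1.85 and 2.03 with other scalings or any 1 library left out. Without cnc-4, the largest contributor, the sum was 120 ± 10.2 and 204 ± 19.9 CPM. cnc-4 made up 40.4 ± 1.22% of the control sum and 47.5 ± 1.01% of the knockdown sum. The share of cnc-3 was 18.9 ± 2.41% in the controls and 7.38 ± 1.65% in the knockdown, and that of cnc-1 was 0.418 ± 0.12% and 5.84 ± 1.00%. cnc-10 held 25.9 ± 1.40% and 25.5 ± 0.88%. These shares are of counts and are not corrected for length. The sum takes cnc-2 at its listed 0 and leaves out cnc-8 and cnc-9, so it is not the level of all caenacins. In controls and knockdown cnc-8 stood at 116 ± 10.5 and 122 ± 20.4 CPM, and cnc-9 at 1.10 ± 0.28 and 9.64 ± 7.88 CPM (SD, n = 3).

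**Figure D4:**
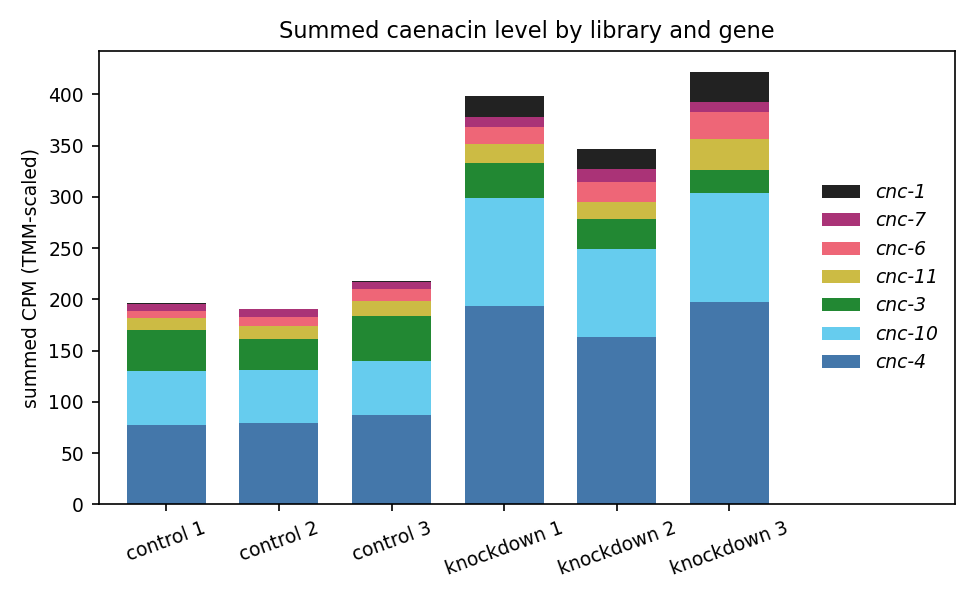
Summed CPM of the caenacin genes in each library, stacked by gene; cnc-2 and cnc-5 are too low to show. The 3 knockdown bars reach 347 to 422 CPM and the 3 control bars 191 to 218 CPM, with cnc-4 and cnc-10 making up most of each bar.

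Members differed in how their knockdown libraries were ranked. Knockdown replicate 2 was the lowest of the 3 for cnc-1, cnc-4, cnc-10 and cnc-11 and the highest for cnc-7, while replicate 3 was the highest for cnc-1, cnc-4, cnc-6, cnc-10 and cnc-11 and the lowest for cnc-3 and cnc-7. Some of these ranks are near ties. Replicates 1 and 3 held 105.6 and 105.8 CPM of cnc-10 and 194 and 198 CPM of cnc-4. Replicates 1 and 2 held 19.9 and 19.3 CPM of cnc-1. As the root mean square difference of centred log2 CPM over the 6 libraries, the closest pair was cnc-4 and cnc-10 at 0.13, followed by cnc-4 and cnc-6 at 0.24 and cnc-10 and cnc-11 at 0.25. cnc-4 is in the cluster and cnc-10 lies elsewhere on chromosome V. The cluster neighbours cnc-3 and cnc-4 differed by 0.84 on this scale. The most distant pair, cnc-1 and cnc-3, differed by 2.63.

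The table also holds cnc-8 and cnc-9, which are outside the named set. cnc-8 was at 110, 109 and 128 CPM under control RNAi and 140, 99.8 and 126 CPM after the knockdown, overlapping groups with a log2 fold change of 0.07 (edgeR adjusted p = 0.83). cnc-9 was at 1.40, 1.07 and 0.84 CPM under control RNAi and 11.01, 1.17 and 16.7 CPM after the knockdown, so replicate 2 lay among the controls. Its log2 fold change was 3.12 ± 0.79 (edgeR adjusted p = 0.0462), and the call held in 7 of the 15 alternatives, with 0.233 in limma-voom. Caenacin genes resemble one another, and the treatment of reads shared between copies is not stated in the sources used here, which adds an uncertainty to the value of each gene.

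The listed nlp peptides were higher more often than lower. Of 11 genes listed from nlp-24 to nlp-34, all were tested, 6 rose and 1 fell by edgeR at an adjusted p of 0.05, and 4 were not called, with a median log2 fold change of 0.76. The 4 not called were nlp-24, nlp-25, nlp-26 and nlp-30. Among all tested genes 3.97% were called higher and 5.01% lower. nlp-32 had the largest rise, from 1.40, 2.34 and 2.07 CPM to 8.60, 14.1 and 9.99 CPM (log2 fold change 2.49, adjusted p = 0.0014). nlp-34 rose from 49.6 ± 11.4 to 135 ± 25.8 CPM and nlp-27 from 437 ± 44.7 to 1100.5 ± 101 CPM (SD, n = 3). nlp-31, nlp-28 and nlp-29 rose with log2 fold changes of 1.05, 0.80 and 0.76, and the calls of nlp-28 and nlp-29 were lost when any 1 control library was left out (highest adjusted p 0.162 and 0.156). The nlp-28 call was also lost without knockdown replicate 3, where its log2 fold change was 0.59 (adjusted p = 0.0554). nlp-33 fell from 223 ± 33.6 to 111 ± 26.7 CPM (adjusted p = 0.0162), a call that was lost when control replicate 2 or 3 was left out (highest adjusted p 0.0783). Without control replicate 1 only 3 nlp genes were called higher, with nlp-31 lost as well (adjusted p = 0.0521). Both families thus held genes that rose beside genes that did not.

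Genes listed for the DBL-1 and p38 pathways, which signal to these peptides, were not called by edgeR with all 6 libraries. In the DBL-1 pathway 0 of 14 listed genes were called by edgeR, 8 were tested, 3 of these had an unadjusted p under 0.05, and 5 were listed at 0 (4 of them with more than 1 RefSeq transcript), among them the receptor gene daf-4. The ligand gene dbl-1 was at 8.52 ± 1.63 and 10.04 ± 3.16 CPM (adjusted p = 0.65), the receptor gene sma-6 at 19.97 ± 3.39 and 23.7 ± 6.20 CPM (adjusted p = 0.60) and the Smad gene sma-3 at 14.0 ± 1.14 and 19.9 ± 3.45 CPM (adjusted p = 0.14) in controls and knockdown. In the p38 pathway 0 of 18 listed genes were called, 11 were tested, 3 had an unadjusted p under 0.05 and 5 were listed at 0, all with more than 1 RefSeq transcript. Among the p38 genes not tested were nsy-1, listed at 0, and tir-1, with 1 count in all. DESeq2 and limma-voom also called 0 genes of either list. The kinase gene pmk-1 was at 40.2 ± 0.58 and 49.7 ± 9.26 CPM (adjusted p = 0.31), and sta-2, which encodes a STAT-like factor needed for nlp-29, at 31.6 ± 1.08 and 45.3 ± 12.1 CPM (adjusted p = 0.18). All 8 tested DBL-1 genes and all 11 tested p38 genes had log2 fold changes above 0, with medians of 0.29 and 0.39. The knockdown libraries lay above the control libraries in 4 of the 8 and 3 of the 11, and below them in 0. Of all tested genes 15.8% lay above and 14.6% below. Log2 fold changes above 0 were not particular to these pathways. They were found in 6 of 6 tested markers of body muscle, 5 of 5 of neurons and 6 of 7 of intestine. The medians of these markers were 0.49, 0.20 and 0.32. All 6 tested sperm markers also lay above 0, as did 2 of 3 epidermal markers, while all 7 tested oocyte markers lay below 0. Without knockdown replicate 1 edgeR called 1 gene of the DBL-1 list and 4 of the p38 list higher. In all tested genes 23.3% had an unadjusted p under 0.05. RNA levels of these genes do not measure the activity of the pathway.

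**Figure D5:**
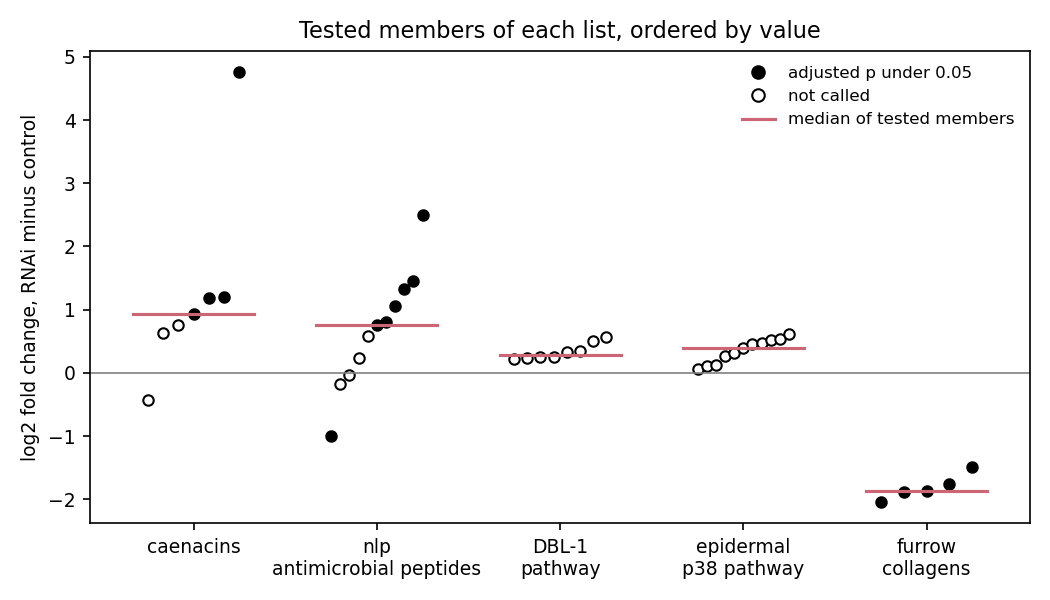
Log2 fold changes, y54g2a.18 RNAi minus control RNAi, of the tested genes of 5 lists, ordered by value within each list, filled where the edgeR adjusted p is under 0.05, with red lines at the medians of 0.93, 0.76, 0.29, 0.39 and -1.87 from left to right. Filled points stand on both sides of 0 in the nlp list, above 0 in the caenacins and below 0 in the furrow collagens.

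The furrow collagens, which form the ring-shaped folds of the cuticle and whose loss is known to switch on nlp-29, fell in 5 of 5 tested genes of 6 listed. Of all tested genes 5.01% were called lower. dpy-2, dpy-3, dpy-7, dpy-8 and dpy-10 had log2 fold changes of -1.87, -2.04, -1.88, -1.76 and -1.48, with edgeR adjusted p from 0.0042 to 0.0196. Their summed level was 730 to 870 CPM under control RNAi and 151 to 351 CPM after the knockdown, and replicate 2 had the highest knockdown value of each of the 5. The calls of dpy-8 and dpy-10 were lost when any 1 control library was left out (highest adjusted p 0.067 and 0.0698). The part of these collagens in the caenacin levels was not tested.

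Epidermis itself could be followed poorly. Of 8 epidermal markers 3 were tested and 0 called by edgeR, 0 passed 0.05 before adjustment, and lin-26, elt-1 and vab-10 were listed at 0. The summed level of the 8 was 35.8 to 77.3 CPM under control RNAi and 29.7 to 143 CPM after the knockdown, mostly from mup-4. Body muscle markers summed to 1676 to 1764 and 2001 to 2570 CPM, with 0 of 6 tested genes called and hlh-1 at 0. Intestine markers summed to 2965 to 3117 and 3154 to 4857 CPM, mostly from asp-1, with 0 of 7 called and ifb-2 at 0. Neuron markers summed to 446 to 513 and 469 to 647 CPM, mostly from snb-1, with 0 of 5 called and unc-31 at 0. Of the muscle, intestine and neuron markers 1, 2 and 0 passed 0.05 before adjustment, and 0 were called by DESeq2 or by limma-voom. Without knockdown replicate 1 edgeR called 1 muscle, 2 intestine and 1 neuron marker higher. Whether the makeup of the worms has a part in the caenacin levels was not tested.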

How the data were processed

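The authors deposited raw counts per gene, 1 column per library and not normalized. Per the submitters' processing notes the tools include HISAT2 2.2.1, featureCounts 1.28.1, FastQC 0.11.9 and DESeq2 1.16.1, with no role stated. The sources used here give no build, annotation, strand setting or rule for shared reads. Columns were matched to samples by library name and grouped by title; 1 title writes y54g21.18 and was read as y54g2a.18. Of 46903 rows, 12 had dates as names and were dropped (up to 0.0247% of a library). Of counts from 1 to 20, 71.5% were even, as when both mates are counted, so counting limits are too narrow.

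In R 4.3.3, genes of the 6 libraries were filtered by filterByExpr (minimum count 10, total 15), scaled by TMM and fitted with edgeR 4.0.16 (quasi-likelihood, group only), with Benjamini-Hochberg adjustment over 14290 genes and calls at 0.05. Standard errors are the log2 fold change over the root of F. The fit was tested on simulated data. Replicates were checked against each other (log CPM correlation 0.965 to 0.990, chi-square per degree of freedom 24.2 to 182), and no library repeated another.

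Alternatives were DESeq2 size factors, total counts, upper-quartile factors, 2 filters, DESeq2 1.42.0, voom in limma 3.58.1, a replicate block, no ribosomal RNA genes and leaving out each library. Named were all members, called list genes, heads of the pathways and the 5 genes of at least 10 CPM nearest in pattern; cnc-8, cnc-9, R09B5.11, srj-23 and the ratios were added after values were seen. Members and lists were chosen with earlier results of these data known. The reference WBcel235 gave order, overlaps, exon lengths and RefSeq transcript numbers.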

Additional observations from a re-analysis of the deposited data

How the results depend on the processing

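cnc-1, cnc-4 and cnc-10 were called higher in all 15 alternatives. Between 3 and 5 caenacins were called higher: cnc-6 was lost without control replicate 1 or 2, and cnc-11 was gained in DESeq2; 0 were called lower in each. The summed ratio ran from 1.85 to 2.03 with a library left out. The log2 fold change of cnc-8, not called, ran from -0.037 without knockdown replicate 1, a change of sign in a fit with fewer samples (adjusted p = 0.889), to 0.20 without knockdown replicate 2. The number of genes called in the whole table, 1283 (567 higher, 716 lower), depended on single libraries: with 1 left out it ran from 646 to 2097, from 224 to 912 higher and from 422 to 1185 lower, lowest without control replicate 1 and highest without knockdown replicate 1. The replicate block gave 955 calls, 364 of them higher, and kept the 4 caenacin calls. Of the nlp peptides it called 5 higher, with nlp-28 lost (adjusted p = 0.0519). Same-numbered libraries shared little (correlations of deviations 0.0074, 0.045 and -0.365; 1 of 6 libraries correlated best with its own number), so the numbers are not taken as pairs. DESeq2 called 1772 genes. The median of all genes stayed within 0.1 of 0 (log2) under each scaling. Without the filter cnc-5 could be fitted (adjusted p = 0.491); the other alternatives gave it no value. Low counts limit cnc-1 in the controls and cnc-5.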

Other observations

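The genes nearest in pattern to the summed caenacin level, among 7005 others with a mean of at least 10 CPM, were C33A12.4, F53F4.1, F55C5.2, F08G2.5 and C54D10.13, with root mean square differences of 0.057, 0.074, 0.085, 0.087 and 0.088 in centred log2 CPM over the 6 libraries. C33A12.4 stood at 52.1, 49.8 and 57.3 CPM under control RNAi and 96.9, 96.0 and 107 CPM after the knockdown. They were picked for this likeness, which is a description with no test. For comparison, cnc-10 differed from the sum, of which it is a part, by 0.055 and cnc-4 by 0.12.

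Germline lists gave values that belong to no comparison above. Of 6 tested sperm markers 2 were called higher by edgeR, spe-12 from 1.31 ± 0.20 to 3.12 ± 0.82 CPM and gsp-3, a sperm phosphatase gene, from 13.6 ± 0.52 to 22.2 ± 2.43 CPM (SD, n = 3), and neither call held when any 1 control library was left out or with the replicate block. The spe-12 call was also lost without knockdown replicate 3 (adjusted p = 0.0536). Of all tested genes 3.97% were called higher. Oocyte markers summed to 1375 to 1629 CPM under control RNAi and 1181 to 1384 CPM after the knockdown, with 0 of 7 tested genes called by edgeR, DESeq2 or limma-voom and 1 with an unadjusted p under 0.05.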
